A study of Mus musculus with 16 samples.

Results

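The comparison described here set Tet2-deficient LSK cells taken through ambient air against wild-type (WT) LSK cells kept at physioxia, the low oxygen of the bone marrow. It used 8 of the 16 samples of the series, 4 per group, chosen by their labels, and all 6288 genes of the deposited table. No WT air library entered this contrast. LSK cells are the lineage-negative, Sca-1-positive, c-Kit-positive fraction of bone marrow that holds the blood stem cells and early progenitors. The Tet2-deficient air group came from Tet2-/- mice, and its cells stood in ambient air (21% oxygen) over 6 hours until their RNA was taken. The WT physioxia group came from C57Bl/6J mice, and its cells stayed in a chamber at 3% oxygen until lysis. Tet2-deficient physioxia and WT air, with 4 libraries each, are the other two groups and are shown for orientation. Both genotypes carry the strain label C57Bl/6J, were 3 to 4 months old, and included both sexes; all marrow was first collected at 3% oxygen, so the air groups had been at physioxia too. The cells were enriched with magnetic kits and are named CD45 positive cells in the sample labels. The WT mice came from a core facility, and whether the Tet2-/- mice were their littermates is not given in the sources used here.

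Tet2 is a dioxygenase that oxidizes methylated cytosine in DNA, with oxygen, iron and alpha-ketoglutarate as its requirements, and its loss in blood stem cells is known from clonal haematopoiesis and myeloid malignancy. Marrow stem cells live at low oxygen, and a move to room air within minutes to hours is known to alter how many of them can engraft. A direct comparison of the mutant in air with the normal cell at physioxia therefore places side by side the pair of states in which genotype and oxygen both differ. It asks which genes hold the same level in that pair and which keep a gap.

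Across the 8 libraries, 10359688 to 15683867 reads fell on the genes of the table, with 12.3% to 20.3% of them on the top 10 genes of the library. In a principal component analysis of all 16 libraries, the first component (64.3% of the variance) put every Tet2-deficient library on 1 side and every WT library on the other. On the second component (9.61%), WT physioxia replicate 2 lay apart at 51.3, against -0.6 to 25 for the other 3 libraries of its group. Tet2-deficient air replicates 3 and 4 lay at 8.1 and 13.5, against -20.6 and -18.1 for replicates 1 and 2. The median standard deviation of a gene on the log2 scale was 0.249 in Tet2-deficient air and 0.332 in WT physioxia. Counts of 3 or more members are therefore also given without those libraries, or without any 1 library, where they moved by over 1.5 times; smaller counts of members moved by at most 2. Of the surface markers of the sorted fraction, Kit, Slamf1 and Procr were in the table, and all 3 were higher in Tet2-deficient air; Ptprc, Ly6a, Cd34, Cd48 and Flt3 were not analysed here. Tet2 itself (GRCm38 chr3:133463679-133545139, minus strand) had 626, 564, 519 and 506 normalized counts in Tet2-deficient air, against 782, 592, 812 and 739 in WT physioxia. Replicate 2 of WT physioxia lay inside the Tet2-deficient range, so the groups overlapped, with a log2 difference of -0.40 ± 0.15 (SE, adjusted p = 0.0409). The Tet2 call was lost with TMM scaling (adjusted p = 0.0791) and without any of 6 of the 8 libraries (adjusted p = 0.0703 to 0.108). The counts cover the whole gene, and which exons the allele lacks is not given in the sources used here, so this level does not check the genotype.

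Most genes of the table kept a gap between the 2 groups. Of 5881 genes with enough signal to test, 3645 (62%) passed the threshold, a Benjamini-Hochberg adjusted p under 0.05 from limma: 1909 (32.5%) were higher and 1736 (29.5%) were lower in Tet2-deficient air. At least a 2-fold difference was reached by 901 of the higher and 670 of the lower genes. The 4 libraries of 1 group lay wholly above those of the other for 3331 tested genes (56.6%), 1713 with Tet2-deficient air on top and 1618 below. The median gene differed by -0.05 on the log2 scale. How the authors chose the 6288 genes out of 55450 annotated ones is not given in the sources used here, so these shares describe the table and not the genome. At a margin of 2-fold in either direction, an equivalence test placed 2117 genes (36%) at a shared level (adjusted p under 0.05); 918 of them also passed the test of a difference, with small gaps. Another 1037 genes passed neither test. At a stricter margin of 0.5 on the log2 scale, which was the planned one, 0 genes passed after adjustment (smallest adjusted p = 0.674) and 380 (6.46%) had an unadjusted p under 0.05.

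The widest gaps belonged to genes that were close to absent in 1 genotype. Gbp2b, a guanylate-binding protein of the interferon-inducible GTPase family (GRCm38 chr3:142594847-142619179, plus strand), had 399, 432, 365 and 367 normalized counts in Tet2-deficient air, against 0, 0, 0 and 1.71 in WT physioxia. With 1785 reads against 2 over the groups, it was 810-fold higher in Tet2-deficient air (95% counting interval 224 to 6690). Atp6v0e2, a subunit of the vacuolar proton pump, had 1340 reads in Tet2-deficient air and 4 in WT physioxia, a ratio of 304 (118 to 1120). The eosinophil-associated ribonuclease pseudogene Ear-ps2 had 821 reads in Tet2-deficient air and 0 in WT physioxia, at least 62.1-fold higher with a floor of 3 reads per library. These intervals cover counting error only. Prss41, a serine protease, and Ttll11, a tubulin polyglutamylase, followed with log2 differences of 5.34 ± 0.76 and 4.70 ± 0.35 (SE). Of the genes with the largest rises, 5 have near-identical copies among which reads can be split, so their values are uncertain: Ear10, Rps13-ps1, Atp6v0c-ps2, Pcna-ps2 and Hmga1b. Ear-ps2 belongs to the same gene family as Ear10, and whether its reads are split in this way was not tested.

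In the other direction, Baiap3, a regulator of vesicle release (GRCm38 chr17:25242659-25256364, minus strand), had 0, 0, 0 and 0.85 normalized counts in Tet2-deficient air, against 230.1, 83, 191 and 277 in WT physioxia. It held 1 read in the whole Tet2-deficient air group against 805 in WT physioxia, 887-fold lower (95% counting interval 159 to 35100). Fgf3, a fibroblast growth factor, had 0.82, 5.21, 2 and 2.54 in Tet2-deficient air, against 404, 451, 384 and 256 in WT physioxia, 140-fold lower (80 to 272). Zfp125 and Eps8l1 were 157-fold and 74.3-fold lower. Among better expressed genes, Kcnip3, a calcium-binding partner of potassium channels, had 56.5, 48.6, 25 and 96.5 in Tet2-deficient air, against 1005, 1149, 1195 and 1438 in WT physioxia. Its relative Ncs1, also a calcium sensor, had 40.9, 86, 12 and 20.3 in Tet2-deficient air, against 427, 693, 679 and 722 in WT physioxia. The rule that named these genes required that no library of 1 group entered the range of the other. The inflammation-induced hyaluronan-binding protein Tnfaip6 (log2 difference -4.81 ± 0.47), the complement receptor C5ar1 (-4.14 ± 0.44), the antimicrobial peptide gene Camp (-4.39 ± 0.37) and the lectin Fcnb of neutrophil precursors (-4.17 ± 0.47) completed the 10 named for the largest falls (SE, adjusted p at most 0.00033).

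Gene classes were unevenly represented among the wide gaps. Of 203 genes past the threshold with at least an 8-fold difference (3.45% of those tested), 101 were among 5227 protein-coding genes (1.93%), 34 among 140 processed pseudogenes (24.3%) and 31 among 63 immunoglobulin variable segments (49.2%). Processed pseudogenes were higher in Tet2-deficient air for 77 of 140 (55%) and lower for 24 (17.1%), with a median log2 difference of 1.06. Immunoglobulin variable segments were lower for 32 of 63 (50.8%) and higher for 14, and none passed the 2-fold equivalence test. Protein-coding genes reached that shared level in 2060 of 5227 cases (39.4%). By position, chromosome 6, which carries the kappa light chain locus, held 35 of the 203 genes with 370 tested (9.46%), chromosome 18 held 13 with 148 tested (8.78%), and chromosome 12, which carries the heavy chain locus, held 19 with 255 tested (7.45%). All 3 tested genes of the Y chromosome were higher, 2 of them by at least 4-fold and 1 by at least 8-fold. Uty, a histone demethylase relative with a smaller gap, averaged 862 ± 63.3 in Tet2-deficient air and 653 ± 52.8 in WT physioxia (SD, n = 4 each). Both sexes were included, and the part of the share of males per group in these Y chromosome gaps was not tested. Within 20 Mb of Tet2 on chromosome 3, 12 of 63 tested genes (19%) passed with at least a 4-fold difference, against 495 of all 5881 (8.42%); 44 of those 63 (69.8%) passed the threshold at any size. Gbp2b and Gbp7 both lie within those 20 Mb, and the part of the region flanking Tet2 in their gaps was not tested.

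**Figure D1:**
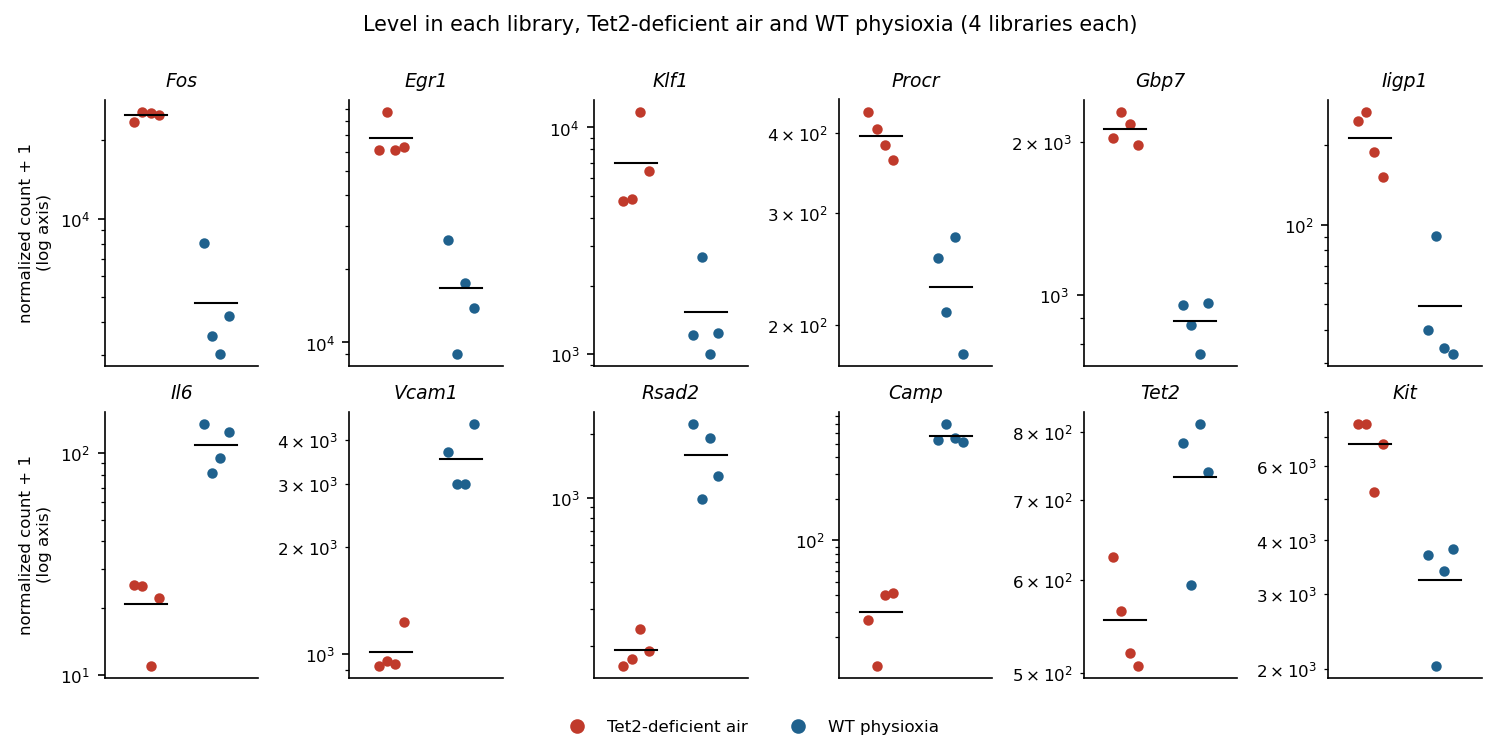
Normalized count plus 1 on a log axis for 12 genes, with 1 point per library, 4 Tet2-deficient air libraries on the left of each panel and 4 WT physioxia libraries on the right, and a bar at the group mean. Fos, Egr1, Klf1, Procr, Gbp7, Iigp1 and Kit lie higher and Il6, Vcam1, Rsad2 and Camp lower in Tet2-deficient air with no overlap, while Tet2 overlaps.

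Immediate early genes were high in the Tet2-deficient air libraries. They encode short-lived transcription factors and phosphatases that cells switch on within minutes of a signal. Of 23 tested, 16 were higher and 1, Btg1, was lower in Tet2-deficient air, against 32.5% higher and 29.5% lower among all tested genes, with a median log2 difference of 0.81. Fos, the partner of Jun in the AP-1 factor, had 23509.9, 25753, 25338 and 24948 normalized counts in Tet2-deficient air, against 8083, 3539, 3028 and 4238 in WT physioxia (GRCm38 chr12:85473890-85477273, plus strand). The 4 Tet2-deficient air libraries were tightly grouped, WT physioxia replicate 1 was the highest of its group, and the log2 difference was 2.51 ± 0.26 (SE, adjusted p = 0.000153). Egr1, a zinc finger factor of the same response, averaged 68107 ± 12946 in Tet2-deficient air and 16632 ± 7295 in WT physioxia (SD, n = 4 each), a log2 difference of 2.12 ± 0.29. The MAP kinase phosphatase Dusp1 averaged 25690.4 ± 5061 in Tet2-deficient air and 7606 ± 2393 in WT physioxia, and the growth inhibitor Btg2 averaged 12322 ± 694 in Tet2-deficient air and 4263 ± 913 in WT physioxia. Jun itself, with a log2 difference of 0.90 ± 0.18, had a smaller gap than Fos. Maff and Srf had log2 differences of -0.10 and -0.13, which did not pass. Btg1 did not pass without Tet2-deficient air replicate 3 or WT physioxia replicate 1 (adjusted p = 0.0508 and 0.0532). The mean log2 level of the 23 genes was 12.14 to 12.35 in Tet2-deficient air and 11.32 to 11.86 in WT physioxia.

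Genes of the TNF and NF-kB response were low in Tet2-deficient air. NF-kB factors are held in the cytoplasm by IkB proteins and, once released, drive cytokines, adhesion molecules and their own inhibitors. Of 24 tested, 19 were lower and 1, the nuclear IkB protein gene Nfkbid, was higher, with a median log2 difference of -1.17. The cytokine gene Il6 had 24.6, 24.3, 10 and 21.2 normalized counts in Tet2-deficient air, against 134, 80.2, 94.4 and 124 in WT physioxia. All Tet2-deficient air libraries lay below all WT physioxia libraries, with a log2 difference of -2.42 ± 0.33 (SE, adjusted p = 0.000642). Vcam1, which lets leukocytes and stem cells hold to marrow stroma, had 923, 953, 935 and 1229.9 in Tet2-deficient air, against 3686, 2991, 3007 and 4429 in WT physioxia (log2 difference -1.79 ± 0.16, adjusted p = 7.69e-05). The subunits did not move alike: Nfkb2, Rel and Relb fell by 1.47, 1.20 and 1.13 on the log2 scale, while Rela and Nfkb1, the classical dimer, had log2 differences of -0.22 and -0.13 that did not pass and lay within the 2-fold margin. The inhibitors Nfkbia (-0.79), Nfkbib (-0.94) and Nfkbie (-1.45) were lower as well. The list mean was 9.27 to 9.55 in Tet2-deficient air and 10.48 to 10.85 in WT physioxia.

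Interferon-response genes passed in both directions. Of 23 tested, 12 were lower and 6 higher in Tet2-deficient air, with a median log2 difference of -0.72. Among all tested genes 29.5% were lower and 32.5% higher, so the higher share of this list was no more than that of all genes. The antiviral radical enzyme Rsad2 had 161, 173, 241 and 190.5 normalized counts in Tet2-deficient air, against 2223, 980.4, 1903 and 1263 in WT physioxia (log2 difference -2.99 ± 0.26, SE, adjusted p = 5.94e-05). The chemokine gene Cxcl10 averaged 603 ± 103 in Tet2-deficient air and 2263 ± 560.4 in WT physioxia (SD, n = 4 each). Against these, the GTPase gene Gbp7 had 2031, 2289.8, 2165 and 1966 in Tet2-deficient air, against 954, 869, 765 and 962 in WT physioxia (log2 difference 1.25 ± 0.12, adjusted p = 0.000103). Iigp1, an immunity-related GTPase, was higher too, at 212 ± 53 in Tet2-deficient air and 48.3 ± 27.6 in WT physioxia. Among the 6 that were higher, Gbp2, Gbp7, Iigp1 and Irgm1 encode GTPases of the guanylate-binding and immunity-related families; among the 12 lower ones, Mx1, Mx2, Oasl1, Oas1a, Ifit1, Ifit3 and Ifit3b encode antiviral effectors. The count of higher genes was 3 without Tet2-deficient air replicate 1 or 2, or without WT physioxia replicate 1 or 4, and that of lower genes was 7 without Tet2-deficient air replicates 3 and 4. Ifit3 passed in 1 of the 8 fits that left out 1 library, and Gbp2 in 4 of them. Gbp7 and Gbp2 both lie on chromosome 3 with Tet2. Gbp7 is within 20 Mb of Tet2, the distance of Gbp2 is not given here, and the part of that region in their gaps was not tested.

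In their promoter windows, some higher and some lower interferon-response genes share a letter pattern. RefSeq windows of 300 bases (250 before to 50 after the start, GRCm38.p6) were found for 129 of the 164 named genes. The interferon-stimulated response element, searched on both strands by its core pattern, was present in 3.44% of 32851 windows and in 12 of the 17 interferon-response genes with a window. Of these 12, 7 were lower and 3 higher in Tet2-deficient air. The NF-kB pattern was in 4.51% of all windows and in 7 of 18 windows of the NF-kB list. All 7 came from genes that were lower, as were 19 of the 24 tested members of that list. The HIF core ACGTG was in 19.6% of all windows and in 10 of 17 windows of the HIF and glycolysis list, 5 lower and 4 higher. A match describes the letters only. Shown here are Gbp7 (higher, chr3:142530086-142530385, plus strand), Irgm1 (higher here, lower in the opposite pairing, chr11:48871371-48871670, minus strand) and Rsad2 (lower, chr12:26456403-26456702, minus strand), with the interferon element in capitals, and Il6 (lower, chr5:30012864-30013163, plus strand), with the NF-kB pattern and the AP-1 pattern TGANTCA in capitals; each runs 5′ to 3′ along the gene's strand.
Gbp7: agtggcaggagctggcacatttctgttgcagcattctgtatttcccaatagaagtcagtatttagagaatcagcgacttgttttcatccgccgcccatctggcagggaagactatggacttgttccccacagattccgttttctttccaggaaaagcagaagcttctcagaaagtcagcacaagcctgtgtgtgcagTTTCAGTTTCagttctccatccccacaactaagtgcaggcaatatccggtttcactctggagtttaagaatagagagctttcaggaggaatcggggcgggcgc
Irgm1: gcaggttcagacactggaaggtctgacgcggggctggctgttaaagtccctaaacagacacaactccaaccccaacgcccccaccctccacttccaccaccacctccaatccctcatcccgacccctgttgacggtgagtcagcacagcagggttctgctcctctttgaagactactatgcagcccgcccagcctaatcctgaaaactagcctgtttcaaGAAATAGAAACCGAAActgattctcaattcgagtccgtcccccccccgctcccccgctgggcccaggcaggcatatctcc
Rsad2: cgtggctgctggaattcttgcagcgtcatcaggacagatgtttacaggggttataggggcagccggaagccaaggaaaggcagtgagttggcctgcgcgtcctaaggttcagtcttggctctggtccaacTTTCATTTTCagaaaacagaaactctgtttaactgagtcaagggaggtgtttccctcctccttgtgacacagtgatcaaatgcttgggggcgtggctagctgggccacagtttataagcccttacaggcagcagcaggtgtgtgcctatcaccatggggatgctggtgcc
Il6: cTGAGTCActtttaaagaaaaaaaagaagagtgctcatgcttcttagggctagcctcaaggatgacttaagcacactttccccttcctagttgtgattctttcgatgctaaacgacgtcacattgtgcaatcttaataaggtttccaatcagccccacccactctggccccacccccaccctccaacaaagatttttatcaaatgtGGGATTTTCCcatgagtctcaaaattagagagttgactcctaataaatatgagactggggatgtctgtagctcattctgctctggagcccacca
In Irgm1 2 overlapping matches began 30 and 24 bases before the start, in Gbp7 1 began 53 bases before it and in Rsad2 1 began 120 bases before it. In Il6 the NF-kB match began 44 bases and the AP-1 match 249 bases before the start.

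Genes of long-term stem cells were high in Tet2-deficient air. Of 27 tested, 22 were higher and none was lower, with a median log2 difference of 0.96. Procr, the protein C receptor used to purify stem cells, had 431, 405, 382 and 361 normalized counts in Tet2-deficient air, against 254, 208, 273 and 179 in WT physioxia. No library overlapped, and the log2 difference was 0.80 ± 0.17 (SE, adjusted p = 0.00531). Kit, the stem cell factor receptor, averaged 6737 ± 1095 in Tet2-deficient air and 3234 ± 824 in WT physioxia (SD, n = 4 each), a log2 difference of 1.09 ± 0.22. The stem cell marker Fgd5 (1.68 ± 0.29), the imprinted gene Ndn (2.10 ± 0.31) and Slamf1 (1.12 ± 0.24) were also higher. Cdkn1c, the cyclin-dependent kinase inhibitor of quiescent stem cells, was the exception in level, with a log2 difference of -0.85 ± 0.63 that did not pass. The count of higher genes was 21 without Tet2-deficient air replicates 3 and 4 and 22 without WT physioxia replicate 2, where 1 gene was lower. Hox and self-renewal regulators gave 3 higher (1 without Tet2-deficient air replicate 3 or 4 or WT physioxia replicate 3) and 2 lower of 10. These shares are no more than the 32.5% higher and 29.5% lower among all tested genes. Hmga2 (1.42 ± 0.22) and Tal1 (1.50 ± 0.46) were among the higher, and the polycomb methyltransferase Ezh2 (-0.56 ± 0.19) was among the lower. Tal1 did not pass without Tet2-deficient air replicate 3 or 4 or WT physioxia replicate 3 (adjusted p = 0.0507 to 0.0579), and Ezh2 did not pass without Tet2-deficient air replicate 1 or 2 or WT physioxia replicate 1 or 2 (0.0509 to 0.0776).

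Erythroid genes had the highest median of the 30 lists, 1.55 on the log2 scale, with 31 of 40 higher and none lower in Tet2-deficient air. Klf1, the factor that directs red cell gene programmes, had 4729.6, 4854, 11747 and 6415 normalized counts in Tet2-deficient air, against 1209, 2672, 1005 and 1244 in WT physioxia. Every Tet2-deficient air library was above every WT physioxia library, with replicate 3 the highest, and the log2 difference was 2.18 ± 0.36 (SE, adjusted p = 0.00148). The membrane skeleton genes Sptb (3.34 ± 0.51) and Ank1 (2.71 ± 0.45) had wide gaps, together with the anion exchanger Slc4a1 (3.26 ± 0.57). The erythropoietin receptor gene Epor (1.86 ± 0.31) and Gata1 (0.94 ± 0.25), which encodes a transcription factor of red cell and platelet precursors, were higher as well. The globin genes Hba-a1 (1.56 ± 0.62), Hbb-bs (0.51 ± 0.75) and Hbb-bt (1.54 ± 0.73) did not pass. The list mean was 10.56, 10.63, 12.31 and 11.39 in Tet2-deficient air, against 9.36, 10.09, 9.33 and 9.49 in WT physioxia, so replicates 3 and 4 of the mutant stood above the other two. Without those 2 libraries 23 of 40 were higher and 1 was lower, with a median of 1.05, below the 1.10 of long-term stem cell genes in that fit. In these bulk samples, more cells of a type and more RNA per cell cannot be told apart.

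S phase genes were highest in the same libraries. Of 15 tested, 11 were higher and none lower, with a median log2 difference of 0.65; the list mean was 11.34, 11.60, 12.05 and 11.77 in Tet2-deficient air and 10.83 to 11.18 in WT physioxia. Without Tet2-deficient air replicates 3 and 4 the count was 4, and it was 6 without Tet2-deficient air replicate 3, WT physioxia replicate 1 or WT physioxia replicate 3. Among them were the ribonucleotide reductase subunit gene Rrm1 (0.76 ± 0.17), the flap endonuclease gene Fen1 (0.81 ± 0.17) and the cyclin gene Ccne1 (2.21 ± 0.57). Of 11 genes of G2 and mitosis, 2 were higher and 3 lower, with a list mean of 11.18, 11.23, 11.62 and 11.41 in Tet2-deficient air, again highest in replicates 3 and 4, and 11.34 to 11.49 in WT physioxia; 8 of the 11 lay within the 2-fold margin, against 36% of all tested genes. The mitotic kinases Cdk1, Aurkb and Bub1 were among those 8, with log2 differences of 0.31, -0.11 and -0.22. Of 17 replication-dependent histone genes, 3 were higher and 5 lower. Neither this list nor that of G2 and mitosis exceeded the 32.5% higher or 29.5% lower of all tested genes.

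Markers of mature white blood cells were mostly low in Tet2-deficient air. Mature neutrophil markers gave 15 lower of 16 and none higher, with a median log2 difference of -2.22; the list mean was 6.32 to 7.16 in Tet2-deficient air and 8.62 to 9.41 in WT physioxia. Camp, the cathelicidin gene, had 25.4, 11.3, 39 and 40.6 normalized counts in Tet2-deficient air, against 529, 698, 554 and 512 in WT physioxia, and Ngp, a granule protein gene, averaged 293 ± 64.9 in Tet2-deficient air and 3742 ± 1724 in WT physioxia (SD, n = 4 each). The exception was Padi4, at a log2 difference of 0.01 ± 0.16 and within the 2-fold margin. Monocyte and macrophage markers gave 9 lower of 13, led by the itaconate enzyme gene Acod1 (-4.03 ± 0.31) and the receptor gene Tlr2 (-1.59 ± 0.16). Basophil, mast cell and eosinophil markers gave 22 lower of 30, among them the protease genes Prss34 (-3.29 ± 0.27) and Mcpt8 (-1.88 ± 0.20), and 1 higher, the tryptase gene Tpsab1 (3.88 ± 0.53). Myeloid progenitor granule genes moved less: 16 of 19 were lower with a median of -0.62, and 10 of the 19 lay within the 2-fold margin, among them Elane (-0.49) and Prtn3 (-0.46), the primary granule protease genes. Elane passed in 0 and Prtn3 in 4 of the 8 fits that left out 1 library. Without Tet2-deficient air replicates 3 and 4, 8 of those 19 were lower.

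T and NK cell markers gave 22 lower of 29, with a median log2 difference of -1.75. The levels were low in Tet2-deficient air and varied from library to library in WT physioxia: the list mean was 4.91 to 5.44 in Tet2-deficient air, against 8.01, 7.39, 6.54 and 5.91 in WT physioxia. The perforin gene Prf1 (-2.64 ± 0.49), the chemokine gene Ccl5 (-2.44 ± 0.43) and the T cell receptor complex gene Cd3e (-2.44 ± 0.61) were lower, and Cd4 (1.60 ± 0.28) was the 1 member that was higher. Without WT physioxia replicate 1 the count was 14, without WT physioxia replicate 2 it was 17, and without Tet2-deficient air replicates 3 and 4 it was 9. The libraries of WT air had the same order, 7.67, 7.06, 6.35 and 6.02, by replicate number. Neutrophil, monocyte and macrophage, dendritic cell and interferon-response list means also fell by replicate number in both WT groups. For neutrophil markers they were 9.41, 9.06, 8.72 and 8.62 in WT physioxia and 9.17, 8.69, 8.06 and 7.81 in WT air. The B cell, basophil, lymphoid priming and myeloid progenitor granule lists did not fall this way in both groups. Lymphoid priming genes gave 8 lower and 2 higher of 15, with Lef1 (-2.84 ± 0.55), Ccr9 (-1.78 ± 0.33) and Mef2c (-1.10 ± 0.21) lower. B cell markers gave 4 lower and 1 higher of 8, and dendritic cell markers 6 lower of 11; without Tet2-deficient air replicates 3 and 4 the lower counts were 1 and 2, and without replicate 4 alone the lower B cell count was 2. These lists mark cells that lineage depletion is meant to remove, and their part in the other results was not tested.

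**Figure D2:**
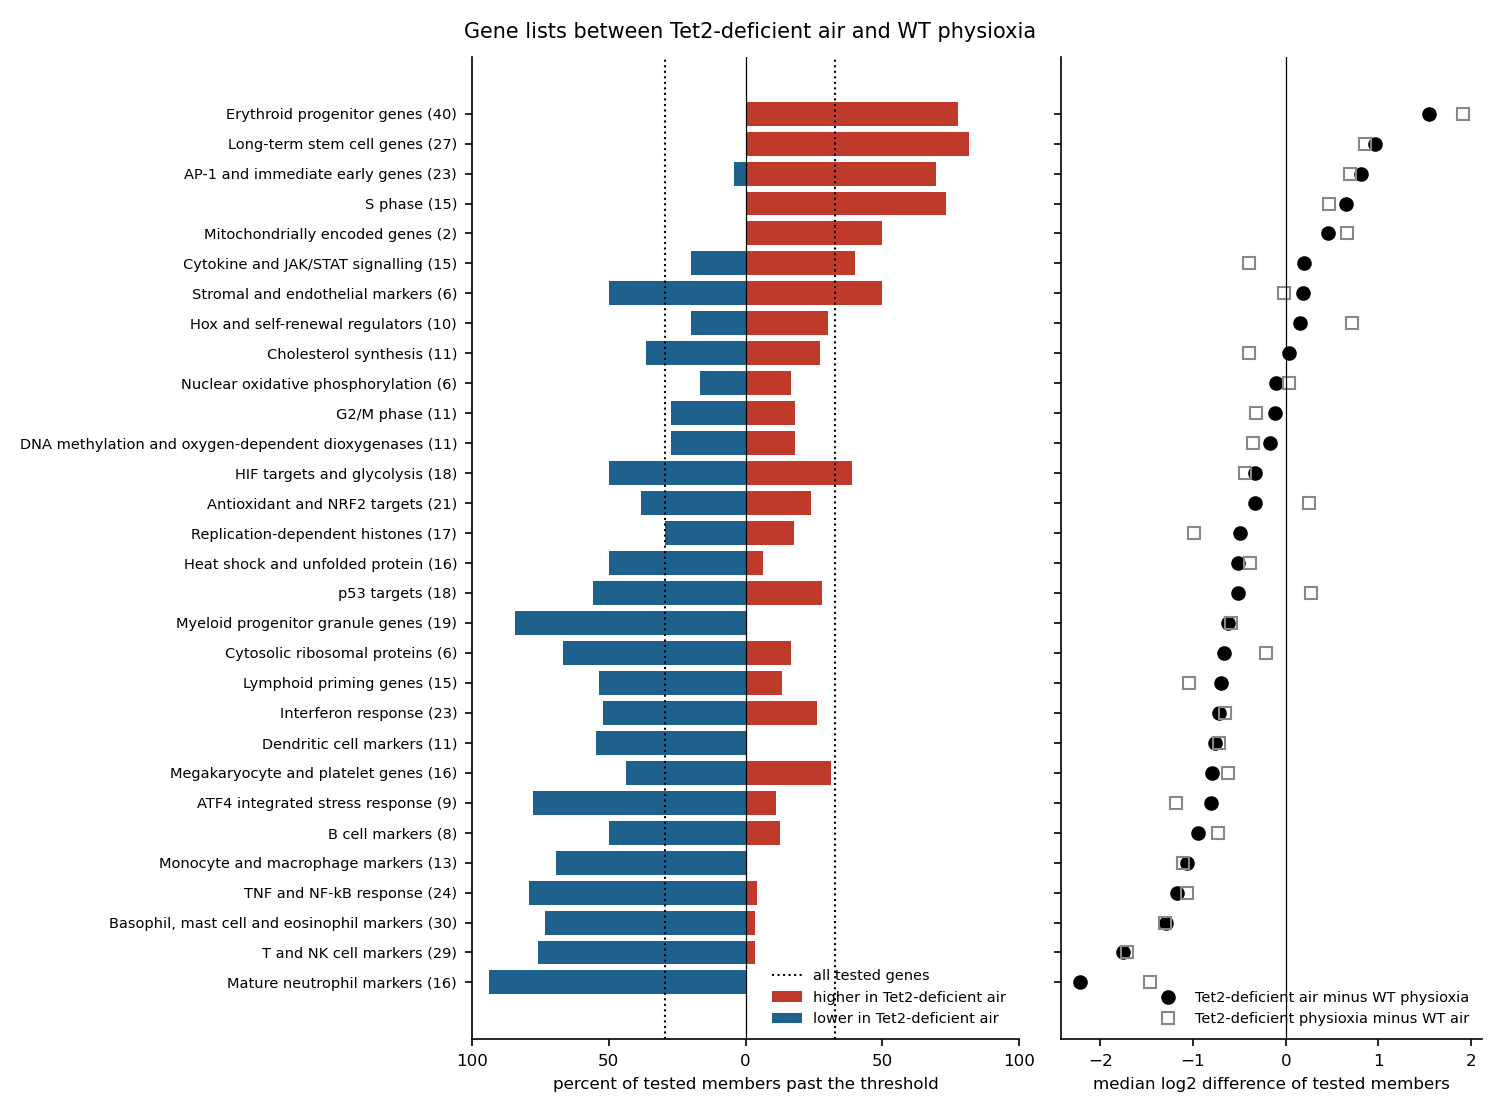
For each of 30 gene lists (tested members in brackets), the left panel shows the percent of members higher (right of 0) and lower (left of 0) in Tet2-deficient air than in WT physioxia, with dotted lines at the 32.5% and 29.5% of all tested genes. The right panel shows the median log2 difference in that pairing (filled) and in Tet2-deficient physioxia minus WT air (open), from 1.55 for erythroid genes to -2.22 for neutrophil markers in Tet2-deficient air minus WT physioxia.

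**Figure D3:**
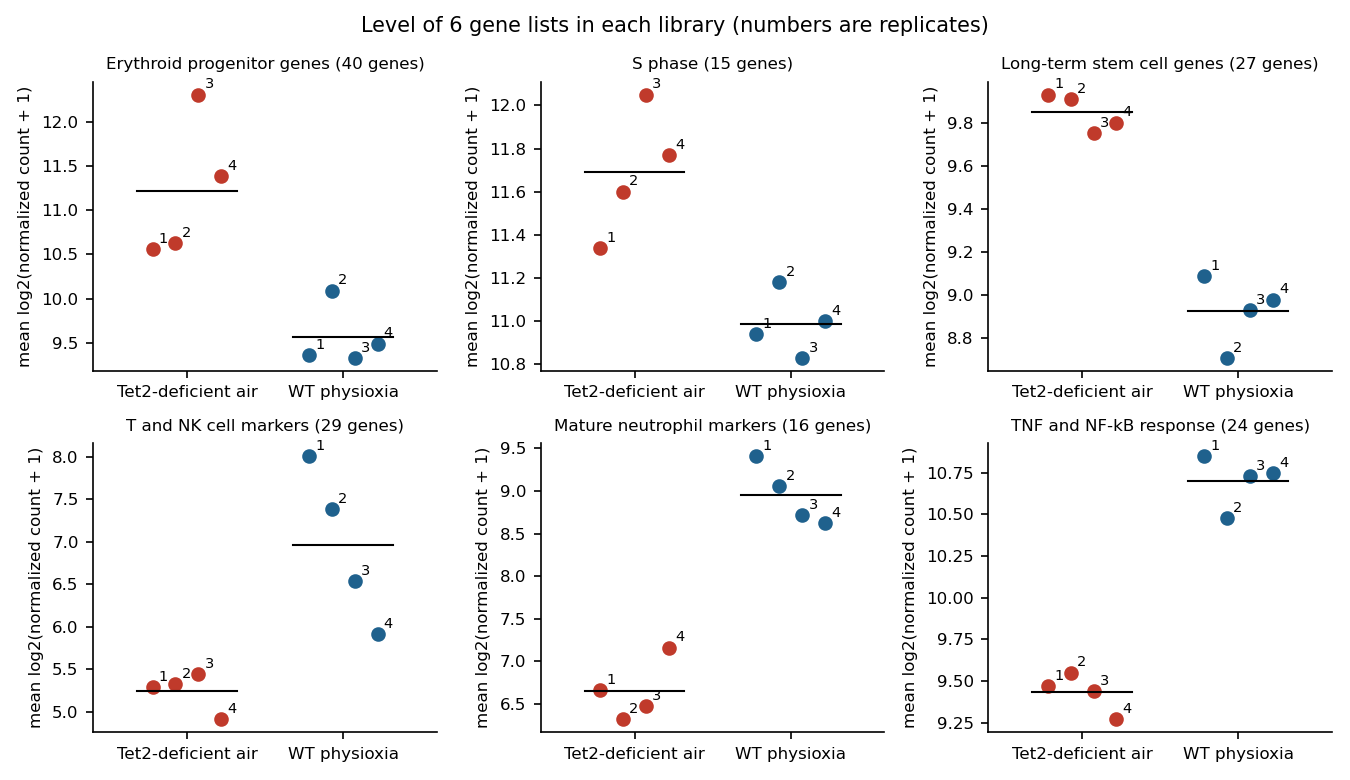
Mean log2(normalized count + 1) of 6 gene lists in each library, Tet2-deficient air on the left and WT physioxia on the right, with replicate numbers beside the points and a bar at the group mean. The erythroid and S phase levels are highest in Tet2-deficient air replicates 3 and 4, and the T and NK cell levels spread from 5.91 to 8.01 within WT physioxia.

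Genes tied to oxygen sensing and glycolysis did not move as a block between the 2 groups, which differed in both genotype and oxygen. HIF factors accumulate when prolyl hydroxylases lack oxygen and then raise glucose uptake and glycolysis. Of 18 tested, 7 were higher and 9 lower, with a median log2 difference of -0.33, and 8 lay within the 2-fold margin. Without Tet2-deficient air replicates 3 and 4, 3 were higher and 4 lower. In Tet2-deficient physioxia against WT air, 6 of the 7 higher and all 9 lower genes passed with the same sign. The median there was -0.44, and 0 of the 18 had a difference between the 2 pairings that passed. Hif1a, whose protein is the regulated subunit, had 1820.2, 2066, 1659 and 2027 normalized counts in Tet2-deficient air, against 3078, 2139, 3994 and 3908 in WT physioxia (log2 difference -0.76 ± 0.20, SE, adjusted p = 0.012). The glucose transporter gene Slc2a1 averaged 972 ± 215 in Tet2-deficient air and 1603 ± 251 in WT physioxia (SD, n = 4 each), and the glycolytic enzyme gene Gapdh averaged 17083 ± 1568 in Tet2-deficient air and 28466 ± 1578 in WT physioxia. Pdk1, a kinase that keeps pyruvate out of mitochondria and a known HIF target, went the other way, with 3331 ± 392 in Tet2-deficient air and 2254 ± 285 in WT physioxia (log2 difference 0.56 ± 0.14). The 2 phosphofructokinase genes had opposite signs, Pfkm with 1.25 ± 0.19 and Pfkp with -1.03 ± 0.18. The calls of Hif1a, Slc2a1 and Pdk1 were lost without Tet2-deficient air replicates 3 and 4 (adjusted p = 0.0666, 0.0808 and 0.0709). Among dioxygenases and DNA methylation genes, 2 of 11 were higher and 3 lower, no more than the 32.5% and 29.5% of all tested genes, and 1 was lower without WT physioxia replicate 3 or 4: the partner enzyme gene Tet1 had 582, 643, 686 and 753 in Tet2-deficient air, against 321, 155, 290.0 and 313 in WT physioxia (log2 difference 1.35 ± 0.24), the methyltransferase gene Dnmt3b was higher (0.88 ± 0.16), and its cofactor gene Dnmt3l (-2.12 ± 0.49) was lower.

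Lists of stress genes differed in how many members were lower in Tet2-deficient air. Of 9 genes of the ATF4 response to amino acid and translation stress, 7 were lower and 1, the asparagine synthetase gene Asns (1.26 ± 0.28), was higher; Chac1 (-2.37 ± 0.29), Trib3 (-2.19 ± 0.21) and Ddit3 (-1.16 ± 0.19) were among the lower. Heat shock and unfolded protein genes gave 8 lower and 1 higher of 16, with the secretory stress factor gene Xbp1 at -1.06 ± 0.15; the count of lower genes was 5 without Tet2-deficient air replicate 3 and 2 without Tet2-deficient air replicates 3 and 4. Antioxidant genes gave 5 higher and 8 lower of 21, beside 32.5% higher and 29.5% lower among all tested genes. Their regulator gene Nfe2l2, which encodes NRF2, was lower (-1.09 ± 0.12) and the malic enzyme gene Me1 was higher (3.02 ± 0.70). Without WT physioxia replicate 2, whose list mean of 10.58 stood above the 10.09 to 10.11 of its group, 8 were higher, and without Tet2-deficient air replicates 3 and 4 2 were higher and 5 lower. Among 18 p53 targets, 10 were lower, with the death genes Pmaip1 (-2.19 ± 0.24) and Fas (-1.82 ± 0.20), and 5 were higher, with Btg2 and Phlda3 (1.48 ± 0.27); the count of higher ones was 3 without Tet2-deficient air replicate 1 or 2 and 2 without replicates 3 and 4. In the cholesterol and fatty acid list, 4 of 11 were lower, among them Mvd, Insig1 and Hmgcs1, and Hmgcs1 passed in 3 of the 8 fits that left out 1 library. The count of lower ones was 2 without Tet2-deficient air replicate 4 or WT physioxia replicate 3, and 1 without Tet2-deficient air replicates 3 and 4. In the same list 3 were higher, the stearoyl desaturase genes Scd1 (2.23 ± 0.36) and Scd2 (1.05 ± 0.28) and the thiolase gene Acat2 (1.00 ± 0.18). Cytokine receptors and JAK/STAT genes gave 6 higher and 3 lower of 15, megakaryocyte and platelet genes 5 and 7 of 16, stromal and endothelial markers 3 and 3 of 6, ribosomal protein genes 1 and 4 of 6, nuclear oxidative phosphorylation genes 1 and 1 of 6, and mitochondrially encoded genes 1 and 0 of 2, beside 32.5% higher and 29.5% lower among all tested genes. The cytokine counts were 2 higher without Tet2-deficient air replicates 3 and 4 and 1 lower without WT physioxia replicate 1, 3 or 4. The lower megakaryocyte count was 4 without WT physioxia replicate 3 or 4 and 3 without Tet2-deficient air replicates 3 and 4, where 1 stromal and endothelial marker was higher. The lists with 2 or 6 tested genes are a small part of those gene families.

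The opposite pairing, Tet2-deficient physioxia against WT air, uses the other 8 libraries and reverses which genotype had been in air. Cells of a preparation were split between air and physioxia, so the animals may be the same ones. There, 2596 of 5876 tested genes were higher (44.2%) and 2241 lower (38.1%), with a median log2 difference of 0.225. Of 5798 genes tested in both pairings, 1562 (26.9%) were higher in Tet2-deficient cells both times and 1407 (24.3%) lower both times. Of the genes higher in Tet2-deficient air than in WT physioxia, 83.1% were also higher in the opposite pairing, and of those lower, 82.1% were also lower. These genes keep a genotype gap whichever genotype is in air. Of the 561 genes that passed only in Tet2-deficient air against WT physioxia, 22 had a difference between pairings that itself passed, in a fit of all 16 libraries. That test called 240 of 6110 genes (3.93%), 31 with the difference higher in Tet2-deficient air against WT physioxia and 209 lower. Fos, Rsad2 and Vcam1 show the stable kind, with opposite-pairing log2 differences of 2.25, -2.89 and -1.85, close to 2.51, -2.99 and -1.79 here. Camp did not: it was -1.59 ± 0.38 in the opposite pairing, and the difference between pairings was -2.80 on the log2 scale (adjusted p = 0.0109).

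**Figure D4:**
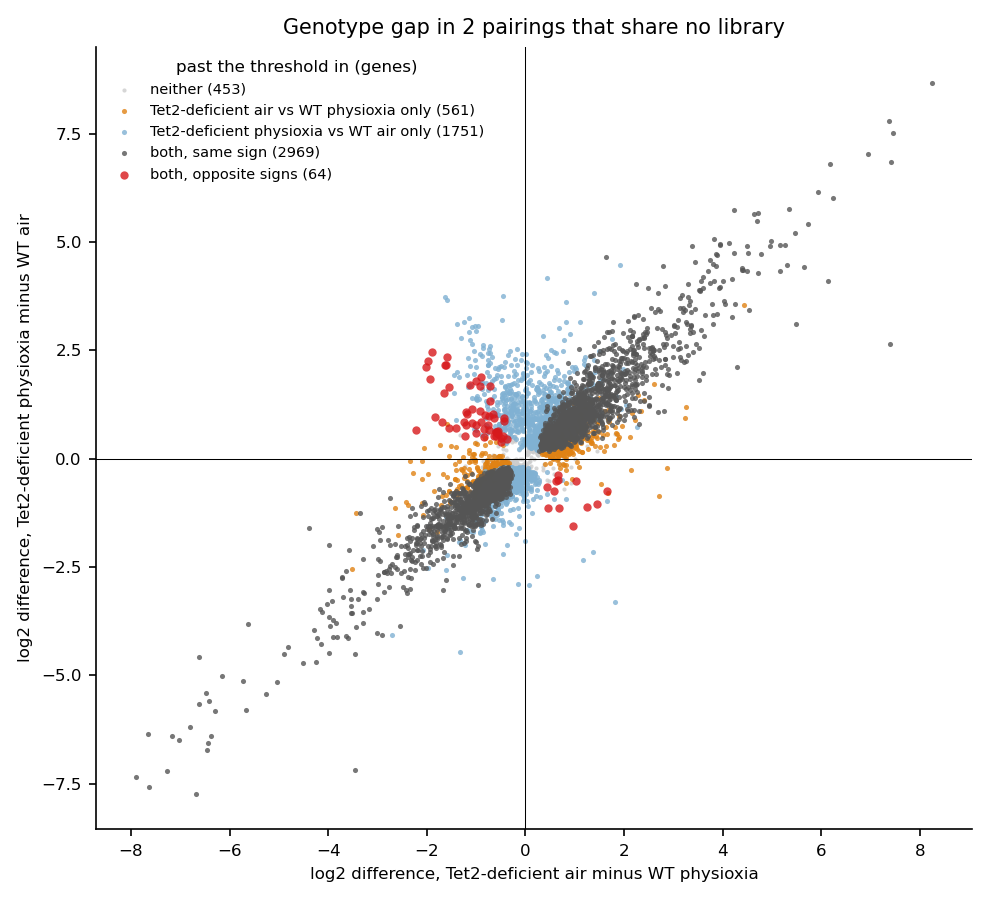
Log2 difference of each of 5798 genes in Tet2-deficient air minus WT physioxia (horizontal) and in Tet2-deficient physioxia minus WT air (vertical), from 2 sets of 8 libraries that do not overlap. Points are coloured by the pairings in which the gene passed; 2969 passed in both with the same sign and 64 with opposite signs.

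Genes that were level in Tet2-deficient air and WT physioxia could still differ between the other two groups. Among the 380 genes within 0.5 on the log2 scale at an unadjusted p under 0.05, 93 were higher (24.5%) and 213 lower (56.1%) in Tet2-deficient physioxia than in WT air. Their 80.5% called in either direction is near the 82.3% of all genes tested in that pairing, of which 44.2% were higher and 38.1% lower. Since no gene passed the adjusted margin, the rule for naming such genes was loosened to the unadjusted p after the values were seen. Among the 93, WT air had the lowest of the 4 group means for 84 and Tet2-deficient physioxia the highest for 57. Among the 213, WT air had the highest mean for 197 and Tet2-deficient physioxia the lowest for 153. In 49 of the 93 and 138 of the 213, both Tet2-deficient air and WT physioxia lay between the means of Tet2-deficient physioxia and WT air. The genes were chosen as close in the first pair and apart in the other, so these orders follow largely from the choice.

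The ornithine carrier gene Slc25a15 had 634, 486, 689.5 and 739 normalized counts in Tet2-deficient air, against 699.6, 826, 653 and 625 in WT physioxia, and 893, 669, 927 and 963 in Tet2-deficient physioxia and 220.1, 385, 436 and 379 in WT air. The first pair overlapped, with a log2 difference of -0.15 ± 0.17 (95% interval -0.52 to 0.23), while the second pair did not, at 1.31 ± 0.21 (SE). The phospholipid enzyme gene Cds2 was at 792 ± 229 in Tet2-deficient air and 812 ± 93.5 in WT physioxia, against 977 ± 79.5 in Tet2-deficient physioxia and 414 ± 72.2 in WT air (SD, n = 4 each). The SUMO ligase gene Pias2 (-0.02 here, 1.25 opposite), the chromatin reader gene Phf13 (-0.01, 1.24) and the mitochondrial protein gene C1qbp (0.01, 1.22) had the same arrangement. In Pias2 and Cds2, Tet2-deficient air replicates 3 and 4 were above replicates 1 and 2.

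In the other direction, the chaperone gene Dnajb12 had 501, 407, 317 and 365 normalized counts in Tet2-deficient air, against 359, 298, 437 and 471 in WT physioxia, and 313, 383, 277 and 351 in Tet2-deficient physioxia and 669, 625, 629.9 and 677 in WT air. The 4 WT air libraries were above all 12 others. Spry2, an inhibitor of receptor tyrosine kinase signalling, averaged 772 ± 206 in Tet2-deficient air and 776 ± 117 in WT physioxia, against 648 ± 125 in Tet2-deficient physioxia and 1260.4 ± 308 in WT air (SD, n = 4 each). Tatdn2, Iqsec1 and the zinc transporter gene Slc39a1 had log2 differences of 0.05, -0.03 and -0.02 here and -1.10, -0.89 and -0.82 in the opposite pairing. The difference between pairings passed for Slc25a15, Cds2, Pias2 and Dnajb12 (adjusted p = 0.00906, 0.00952, 0.037 and 0.0238) and not for Phf13, C1qbp, Tatdn2, Spry2, Iqsec1 or Slc39a1 (0.0754 to 0.252). All were named as close here and apart in the opposite pairing, so these p-values follow in part from the choice.

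**Figure D5:**
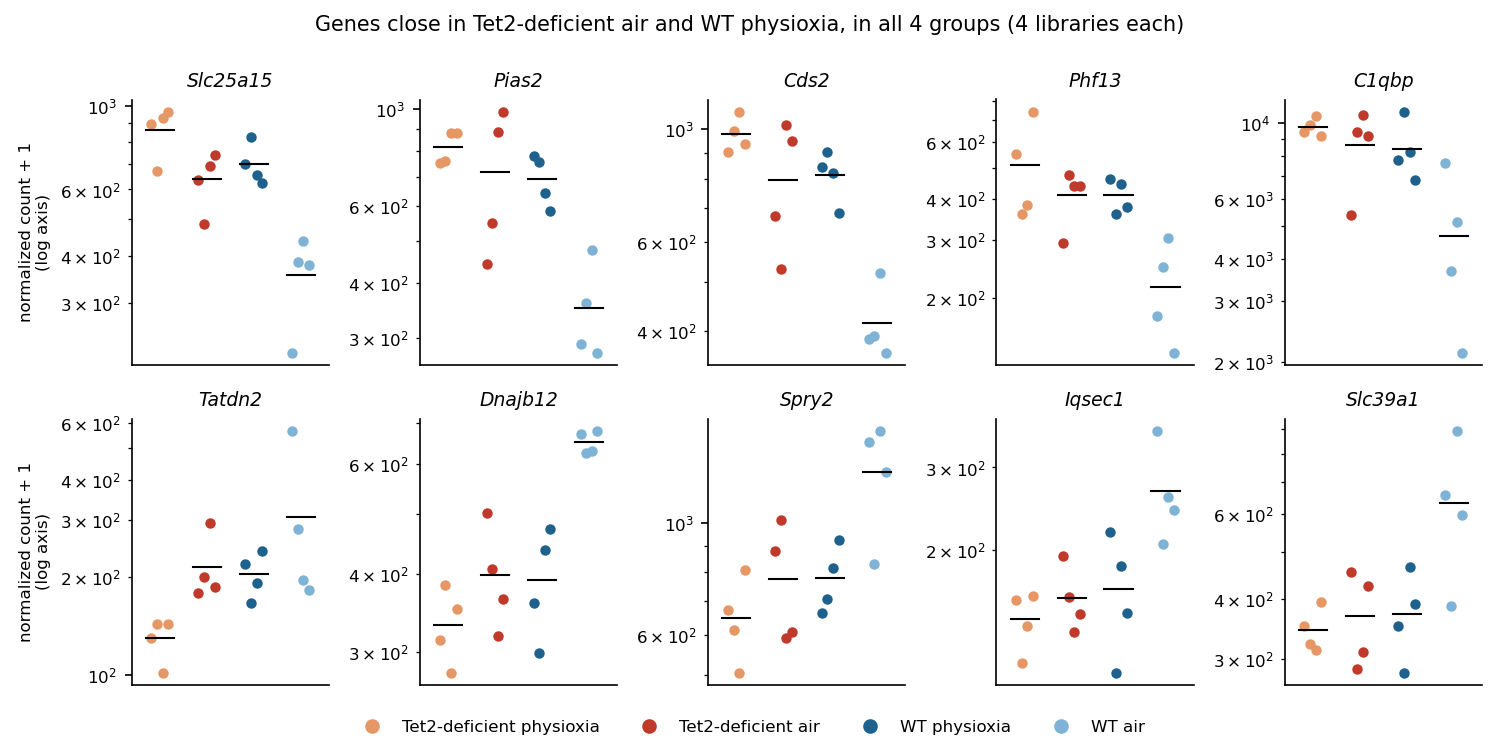
Normalized count plus 1 on a log axis for 10 genes in all 4 groups, 4 libraries each, with a bar at the group mean. In each panel Tet2-deficient air and WT physioxia (middle) are close, and in the upper row WT air is low while in the lower row WT air is high.

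In 64 of the 5798 genes (1.1%) both pairings passed with opposite signs, 12 higher here and lower in the opposite pairing and 52 the other way. The count was 29 without Tet2-deficient air replicate 1 or without WT physioxia replicate 1, and 99 without Tet2-deficient air replicate 4. Mir17hg, the host transcript of a microRNA cluster that promotes proliferation, had 63, 122, 74.1 and 42.3 normalized counts in Tet2-deficient air, against 20.1, 23.1, 27.2 and 31.6 in WT physioxia, and 30.7, 45.4, 57.1 and 54.2 in Tet2-deficient physioxia and 112, 68.4, 117 and 94.7 in WT air. In WT cells every air library was above every physioxia library, while the air and physioxia libraries of Tet2-deficient cells overlapped, and the difference between pairings was 2.50 on the log2 scale (adjusted p = 0.00739). Mir17hg was named for its opposite signs in the same libraries, so that p-value follows largely from the choice. The nuclear import gene Tnpo2 had log2 differences of 1.65 ± 0.39 here and -0.74 ± 0.18 in the opposite pairing (SE). Sgk1, a serum- and glucocorticoid-induced kinase, had 0.67 ± 0.21 and -1.14 ± 0.18, and the mitotic gene Fam83d 0.58 ± 0.17 and -0.74 ± 0.20. Irgm1 had 1.02 ± 0.31 and -0.52 ± 0.14. Sgk1 did not pass here without Tet2-deficient air replicate 1 or WT physioxia replicate 3 (adjusted p = 0.0556 and 0.0579), nor Irgm1 without Tet2-deficient air replicate 2 or WT physioxia replicate 1 (0.0533 and 0.0571).

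Zfp622, a ribosome assembly factor gene, was the reverse, with 2027, 1276, 6341 and 6247 normalized counts in Tet2-deficient air, against 13946, 18357, 13093 and 7351 in WT physioxia, and 6709.7, 5753, 4788 and 8949 in Tet2-deficient physioxia and 781, 1264, 3304 and 971 in WT air. Replicates 1 and 2 of Tet2-deficient air were well below replicates 3 and 4, and replicate 3 of WT air stood above its group. Ypel3 (-1.90 ± 0.62 here, 2.47 ± 0.41 opposite), the chromatin repressor subunit gene Sap30 (-1.61 ± 0.48, 2.17 ± 0.42), Nfxl1 (-1.63 ± 0.60, 2.15 ± 0.17) and the calpain subunit gene Capns1 (-1.59 ± 0.61, 2.35 ± 0.32) had the same arrangement, and the same 2 Tet2-deficient air libraries were low in each. The calls of Ypel3, Nfxl1 and Capns1 rest on few libraries. No fit that left out 1 library lost the call of Zfp622 or Sap30, but both were lost without WT physioxia replicates 1 and 2 (adjusted p = 0.086 and 0.129). Nfxl1 and Capns1 passed here in no fit that left out 1 library except that without Tet2-deficient air replicate 3 or 4 (adjusted p = 0.0541 to 0.0909 for Nfxl1 and 0.0522 to 0.0989 for Capns1). Ypel3 did not pass without Tet2-deficient air replicate 1 or WT physioxia replicate 1, 2 or 3 (0.0523 to 0.061). The p53 targets Ccng2 (-2.22 ± 0.40 here, 0.67 ± 0.16 opposite) and Bbc3 (-1.70 ± 0.60, 0.85 ± 0.28) belonged to the 52 as well; Bbc3 passed here in 3 of the 8 fits that left out 1 library.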

How the data were processed

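RNA of 16 LSK libraries was sequenced on an Illumina instrument, per the labels' protocols. The submitters' processing notes name cutadapt, FastQC, STAR, HTSeq, DESeq2 and GRCm38, without settings. The deposited signal values are gene counts that the authors divided by DESeq2 size factors; 100% came back as whole reads, within 0.01 of a read. Genes were placed with the GENCODE annotation of the same build (6278 of 6288 matched).

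Each pairing was fitted alone with limma 3.58.1 (R 4.3.3; trend, moderated, two-sided) on log2(value + 1), for genes with at least 10 in at least 4 of 8 libraries, with Benjamini-Hochberg adjustment. Differences are on that log2 scale and understate those of low genes. Shared levels were tested with 2 one-sided limma tests against a margin of 0.5, and of 1 as an alternative. The difference between pairings used all 16 libraries. edgeR 4.0.16 and DESeq2 1.42.0, on recovered reads, were alternatives. Scripts were tested on simulated data. Libraries held 7770456 to 15683867 recovered reads on these genes. Group members are labelled as biological replicates.

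Named genes were the largest differences per direction that passed, did not overlap and averaged at least 50; the largest shared-level, opposite-sign and same-sign genes; a set list of 15; and the 4 members of each list with the smallest p. Some genes that this rule picks are not reported here. Members and lists were chosen with earlier results of these data known. Promoter windows and their sequences are from RefSeq (GRCm38.p6), with the start nearest the annotated one.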

Additional observations from a re-analysis of the deposited data

Results flagged for a closer look

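In the 2 groups of 4 libraries, 392 sets of 4 values were examined (named genes, list means and library measures). Of these, 29 held a library whose gap to its nearest neighbour, as a share of the whole range, exceeded Dixon's critical value. About 1 in 20 sets does so by chance, and no explanation was weighed. WT physioxia replicate 2 was the highest of its group for 11 of the flagged levels and the lowest for 1. Its 10 most abundant genes took 20.3% of reads, against 16.3% to 16.5% in its group, and its antioxidant list mean was 10.58. Its normalized counts were 2672 for Klf1, 89.46 for Iigp1, 158500 for Hspa8, 20250 for Fcgr3, 37090 for Cd63, 11180 for Ndufb10, 13160 for Uqcrfs1, 55680 for Rps2 and 85430 for Rpl3, each the highest of its group, and 1660 for Pfkp, the lowest.

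WT physioxia replicate 1 was the highest for the immediate early list mean (11.86) and Csf2ra (5919 normalized counts) and the lowest for Ncs1 (427.1). Replicate 3 was the highest for Rpl24 (21.41). Replicate 4 was the highest for Gbp2b (1.707) and Exo1 (501.9) and the lowest for Pmaip1 (12340).

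In Tet2-deficient air, replicate 1 was the highest for Sgk1 (457.5 normalized counts) and replicate 2 for Egr1 (87490). Replicate 2 had the lowest nuclear oxidative phosphorylation mean (11.59). Replicate 3 was the highest for Cxcl10 (756.6), Pfkm (2730), Gfi1b (3457), Car2 (146700) and Sdc1 (519.4). Replicate 4 was the highest for Vcam1 (1230) and Baiap3 (0.8465).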

How the results depend on the processing

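The count of 3645 genes stayed within 1.5-fold under 10 planned or added settings, from 2967 to 4390, and was 2752 to 3872 when 1 library was left out. It was 1913 (870 higher, 1043 lower) without Tet2-deficient air replicates 3 and 4, and 2347 (1163 higher) without replicates 1 and 2. Leaving out WT physioxia replicates 1 and 2 gave 1702 higher and 1447 lower. The part of the lower number of samples in these falls was not tested. If every annotated gene that the table lacks had not changed, 1194 would pass (627 higher, 567 lower), and 2071 (1100 higher, 971 lower) if only protein-coding ones are added. The count at a shared level was 0 in every setting at a margin of 0.5, against 2117 at a margin of 1, which was 1175 without Tet2-deficient air replicates 1 and 2. The difference between pairings gave 240 genes, and 138 to 359 when 1 library was left out; opposite signs gave 64, and 29 to 99. The protein-coding addition and leaving out Tet2-deficient air replicates 1 and 2 or WT physioxia replicates 1 and 2 were chosen after seeing the data. Of 3526 values of named genes under alternatives, 0 reversed, 192 lost their call and 9 gained one.

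Replicate numbers are shared between groups. Deviations of same-numbered libraries correlated at -0.07, -0.07, -0.11 and -0.19 across the 2 groups, so the numbers do not pair them in this comparison. WT air and WT physioxia libraries of 1 number correlated at 0.33, 0.18, 0.16 and 0.33, and those of Tet2-deficient cells at 0.32, -0.27, 0.04 and -0.01. With the replicate as a block, 2967 genes passed, 35 had opposite signs and 198 differed between pairings; a block within each genotype, added after seeing the data, gave 271. Depth limits the near-absent genes, whose ratios rest on 0 to 12 reads in 1 group.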
